A study of Mus musculus with 4 samples.

Results

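Tfh cells (follicular helper T cells, which support antibody responses in B cell follicles) were profiled by RNA sequencing, and 10 genes of glucose uptake, glycolysis and lactate transport are described here. These genes were taken by symbol from the 23997 rows of the table of FPKM values (fragment counts scaled to transcript length and to library size), and all 10 were found. They are the glucose transporters Slc2a1 and Slc2a3, the hexokinases Hk1 and Hk2, the phosphofructokinases Pfkl and Pfkp, the pyruvate kinase Pkm, the lactate dehydrogenase Ldha and the monocarboxylate transporters Slc16a1 and Slc16a3. The libraries were 2 of wild-type (WT) and 2 of Apoe-/- genotype, the latter from mice that lack apolipoprotein E and develop high plasma cholesterol and atherosclerosis. All mice were C57BL/6 animals aged 13 weeks, and the cells came from their spleens and lymph nodes. The comparison asks how these transcripts differ between Tfh cells of the 2 genotypes. How the cells were purified, and whether replicates were separate animals or pools, is not in the labels, so the p-values reflect only variation among these 4 libraries, and that variation may be technical.

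Glycolysis splits glucose into pyruvate in the cytosol, and lactate dehydrogenase turns pyruvate into lactate, which leaves the cell with a proton through monocarboxylate transporters. Activated T cells raise glucose uptake and lactate output as they grow and divide. Glucose import, hexokinase and phosphofructokinase are classical control points of the pathway, and many of its genes are targets of the transcription factors HIF-1 and Myc.

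In the Apoe-/- Tfh libraries, Slc16a1 and Hk2 fell, whereas the other 8 genes did not pass the test. Markers of other cells also differed between the genotypes, and their part in these results was not tested. The mean FPKM of Slc16a1 was 2.94-fold lower and that of Hk2 2.52-fold lower. Slc2a1, Slc16a3 and Pfkl were lower in both Apoe-/- libraries than in both WT libraries by 1.31-fold to 1.63-fold in the mean, without passing. The transcripts with the highest levels, Pkm, Ldha, Pfkp and Hk1, had means within 1.07-fold of each other between the genotypes. All 10 genes passed the filter of a mean FPKM of 1 or more, and each also had a mean above 1 in both groups. By limma on log2(FPKM + 1), with Benjamini-Hochberg adjustment over 11187 tested genes, 2 of the 10 were called lower, where 0.885% of all tested genes were. None (0) were called higher, against 0.948% of all tested genes. Both lower calls were lost with no FPKM filter (limma adjusted p = 0.0945 for Slc16a1 and 0.0858 for Hk2). The call of Hk2 lay at the threshold (limma adjusted p = 0.0494). Without adjustment, 5 genes were lower and 0 higher at a limma p under 0.05, where 8.27% and 11.6% of all tested genes had such p-values. The 10 genes were chosen with earlier results of these data known, so these shares describe the list and do not test it.

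The sequences just upstream of the start sites of Slc16a1, Hk2 and Ldha are given as reference for the pair of genes that fell and for an abundant gene that did not pass. Each line holds the 250 bases before the RefSeq start on GRCm38, the assembly also called mm10, read 5′ to 3′ on the strand of the gene. Capitals mark ACGTG on either strand, the core of the HIF-1 response element, so that CACGT in capitals is ACGTG on the other strand, and CACGTG, the E-box bound by Myc and its relatives, holds both. The windows are chr3:104638414-104638663 (plus strand) for Slc16a1, chr6:82774455-82774704 (minus strand) for Hk2 and chr7:46845554-46845803 (plus strand) for Ldha.
Slc16a1: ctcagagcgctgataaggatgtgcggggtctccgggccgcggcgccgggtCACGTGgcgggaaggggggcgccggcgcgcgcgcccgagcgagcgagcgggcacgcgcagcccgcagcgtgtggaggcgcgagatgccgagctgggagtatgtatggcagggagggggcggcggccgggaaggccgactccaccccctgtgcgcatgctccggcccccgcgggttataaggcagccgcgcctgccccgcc
Hk2: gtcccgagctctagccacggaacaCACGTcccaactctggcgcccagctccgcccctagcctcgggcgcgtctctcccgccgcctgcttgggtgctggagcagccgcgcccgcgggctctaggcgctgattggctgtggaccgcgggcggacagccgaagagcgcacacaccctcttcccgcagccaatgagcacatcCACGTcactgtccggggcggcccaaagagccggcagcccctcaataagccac
Ldha: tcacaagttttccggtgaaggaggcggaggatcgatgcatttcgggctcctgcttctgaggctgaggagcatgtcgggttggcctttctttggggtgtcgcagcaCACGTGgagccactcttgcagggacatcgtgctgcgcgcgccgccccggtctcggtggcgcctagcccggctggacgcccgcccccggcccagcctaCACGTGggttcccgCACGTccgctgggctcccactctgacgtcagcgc

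Of the 10 genes, 9 had promoter windows in the RefSeq table, each of 250 bases before and 50 after a start, and Slc2a3 had none. In their 12 windows, ACGTG was found in 7, 1 for each of Slc2a1, Hk1, Hk2, Pkm, Ldha, Slc16a1 and Slc16a3, whereas 25.9% of the 10783 windows of tested genes hold it. CACGTG was found in the windows of Ldha and Slc16a1, against 10.2% of windows of tested genes. Slc16a1 has CACGTG at position -200 from its start, and the Ldha window printed above has it at -145 and -48. A short stretch just after that window's start was not matched to a GENCODE transcript of Ldha. The same held for the Slc2a1 window and for the Pkm window with its start at 59657227. The transcripts were searched line by line, so a match across lines would be missed. The stretch after the start of the other Ldha window, at 46847082, was found in a GENCODE transcript of Ldha, and that window holds neither motif. This check does not compare start sites, so it does not tell which start is used. Hk2 has ACGTG on the opposite strand at -226 and -52. Genes that fell and genes that did not pass thus both carried these letters. The windows of Pfkl and Pfkp held neither motif.

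The labels were checked first. Apoe itself was at 145 and 128 FPKM in WT and at 5.09 and 5.21 FPKM in Apoe-/- cells, 26.5-fold lower in the mean (log2 difference -4.48, limma adjusted p = 0.000315). Cd4 (365 to 408 FPKM), Cd3e (281 to 315), Cxcr5 (162 to 223), Bcl6 (94.1 to 116) and Pdcd1 (179 to 283), which mark T cells and Tfh cells, were present in all 4 libraries. Markers of other cells were also present and moved with genotype. All 9 B cell markers were lower in the Apoe-/- libraries, with summed levels of 325 to 330 FPKM in WT and 193 to 202 FPKM in Apoe-/- cells, and Cd22, Fcer2a and Cr2 fell. Neutrophil markers summed to 7.97 to 9.83 FPKM in WT and 51.6 to 68.2 FPKM in Apoe-/- cells. All 4 of the tested ones (S100a8, S100a9, Retnlg and Csf3r) rose, 6 further ones were too low to test, and the granule gene Camp was listed at 0 in all libraries. The macrophage gene Vsig4, the dendritic cell gene Itgax and the plasma cell gene Igj rose, 1 of 10, 1 of 5 and 1 of 3 tested markers of these cells. At an unadjusted limma p under 0.05, 5 of 10 macrophage and monocyte markers and 4 of 5 dendritic cell markers were higher. So were 3 of 7 CD8 T and NK cell markers, and 0 of these 3 lists were lower. Plasma cell markers had 1 higher and 1 lower. Of all tested genes, 11.6% were higher and 8.27% lower at this threshold. Summed levels of macrophage and monocyte markers were 187 to 211 FPKM in WT and 241 to 261 FPKM in Apoe-/- cells, those of dendritic cells at most 10.03 and at least 19.3 FPKM, and those of CD8 T and NK cells 21.7 to 21.9 and 28.6 to 33.4 FPKM. Plasma cell markers summed to 70.8 to 77.2 and 73.1 to 75.9 FPKM, erythroid markers to 47.8 to 50.9 and 29.6 to 33.3 FPKM, and platelet markers to 1.01 to 1.16 and 1.15 to 2.39 FPKM. Among 4 tested erythroid markers 0 were called (2 lower and 0 higher at an unadjusted limma p under 0.05). These 4 went in both directions, with log2 differences from -2.70 for Hbb-b1 to 2.23 for Hbb-bs. The part of these cells in the results below was not tested. In such bulk libraries, fewer cells of a type and less RNA per cell cannot be told apart.

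Levels can be compared between genes because FPKM is scaled to transcript length. In WT the order of mean FPKM was Pkm (396), Ldha (253), Pfkp (63.0), Hk1 (50.1), Pfkl (26.3), Slc2a1 (26.1), Slc16a1 (20.8), Slc2a3 (13.9), Slc16a3 (7.23) and Hk2 (2.85). The ranges of neighbours in this order did not overlap except for Pfkl and Slc2a1. The order in Apoe-/- cells was the same apart from Slc16a1, which stood below Slc2a3. Pkm and Ldha were above 98.6% and 97.6% of tested genes in WT, whereas Hk2 was above 13.1% there and above 1.73% in Apoe-/- cells.

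**Figure D1:**
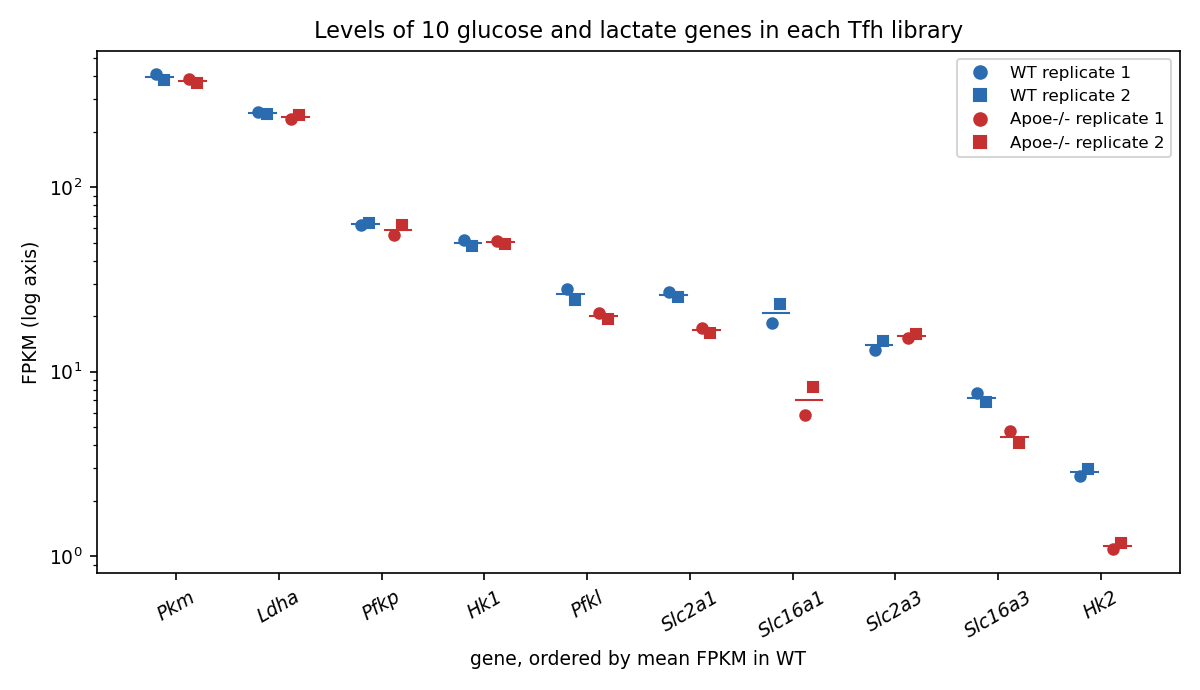
FPKM (log axis) of the 10 genes in each library, ordered by mean FPKM in WT; circles are replicate 1, squares replicate 2 and short lines group means. Slc16a1 and Hk2 lie lower in both Apoe-/- libraries (red) than in both WT libraries (blue), whereas the points of Pkm, Pfkp and Hk1 overlap.

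Glucose enters T cells mainly through facilitative transporters, of which Slc2a1 encodes GLUT1, the carrier raised on T cell activation, and Slc2a3 encodes GLUT3, a carrier of high affinity. Slc2a1, on chromosome 4 from 119108745 to 119137330 (GRCm38), was at 27.0 and 25.3 FPKM in WT and at 17.3 and 16.3 FPKM in Apoe-/- cells. The groups did not overlap, and each Apoe-/- value was below both WT values. The means were 26.1 ± 1.22 and 16.8 ± 0.747 FPKM (SD, n = 2 each), a difference of -0.61 ± 0.11 (SE) in log2(FPKM + 1), which limma did not call (adjusted p = 0.0689). The difference was -0.61 within replicate number 1 and also -0.61 within number 2. Slc2a1 and Hk1 overlap annotated antisense transcripts, whose reads cannot be told apart here. Slc2a3 and Pkm overlap genes annotated on the same strand, the processed pseudogene Gm4482 and Gm49759. Slc2a3, on chromosome 6 from 122727809 to 122802363, was at 13.2 and 14.7 FPKM in WT and at 15.3 and 15.9 FPKM in Apoe-/- cells. Here both Apoe-/- values were above both WT values, with a difference of 0.15 (95% interval -0.13 to 0.44, limma adjusted p = 0.505). Thus Slc2a1 was at 2.05 and 1.72 times the FPKM of Slc2a3 in the WT libraries and at 1.13 and 1.02 times in the Apoe-/- libraries. The log2 ratio of the pair was lower by 0.85 within number 1 and by 0.75 within number 2. The FPKM sum of both transporters was 40.1 ± 0.163 in WT and 32.4 ± 0.267 in Apoe-/- cells (SD, n = 2 each). For this ratio the two-sided exact permutation p was 0.333, the smallest that 2 values a group allow.

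Among 8 further sugar transporter genes, 3 were tested, of which Slc2a6 fell, Slc2a9 rose and Slc2a8 did not pass. Slc2a6 encodes GLUT6, a family member found on intracellular membranes. It was at 7.58 and 8.16 FPKM in WT and at 2.29 and 2.49 FPKM in Apoe-/- cells, 3.29-fold lower in the mean (log2 difference -1.39 ± 0.12 SE, limma adjusted p = 0.0148, -1.38 and -1.39 within numbers 1 and 2). The groups were far apart and the call held in all 13 alternative settings. Slc2a9, whose product mainly carries urate, was at 3.20 and 3.41 FPKM in WT and at 8.25 and 6.97 FPKM in Apoe-/- cells. Its 2.30-fold rise (1.00 ± 0.13 SE, limma adjusted p = 0.0373, 1.14 and 0.86 within numbers 1 and 2) was not called without WT replicate 1 (0.0905), without WT replicate 2 (0.0806), with no FPKM filter (0.0940) or with a mean FPKM of 5 or more (0.0548). Slc2a4, the insulin-responsive GLUT4 gene, and the sodium-coupled Slc5a1 were listed at 0 in all libraries. B cell markers were lower and neutrophil markers higher in the same libraries.

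Hexokinases trap glucose in the cell as glucose 6-phosphate. Hk1 is the widely expressed form and Hk2 the inducible form, and both bind mitochondria. Hk2, on chromosome 6 from 82725025 to 82774454, was at 2.72 and 2.98 FPKM in WT and at 1.09 and 1.18 FPKM in Apoe-/- cells. Both Apoe-/- values were less than the lower WT value by a wide margin. The means were 2.85 ± 0.186 and 1.13 ± 0.0618 FPKM (SD, n = 2 each), with a log2 difference of -0.85 ± 0.13 SE (limma adjusted p = 0.0494), and of -0.83 and -0.87 within numbers 1 and 2. The call lies at the threshold: it was lost when either WT library was left out (limma adjusted p = 0.0835 without replicate 1, and a difference of -0.80 without replicate 2), with no FPKM filter (0.0858) and with a pseudocount of 0.1 (0.0540), where the difference was -1.26. Hk2 has an antisense transcript annotated within it in GENCODE, and strand use in counting is not given in the sources used here. The low level of Hk2 means that the pseudocount of 1 understates its change.

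Hk1, on chromosome 10 from 62268855 to 62379920, was at 52.0 and 48.2 FPKM in WT and at 51.0 and 49.3 FPKM in Apoe-/- cells. These ranges overlapped, with a difference of 0.00 whose 95% interval ran from -0.24 to 0.25 (limma adjusted p = 0.992). Hk3, the form of myeloid cells, was at 1.59 and 1.53 FPKM in WT and at 1.64 and 1.31 FPKM in Apoe-/- cells. Of the summed FPKM of Hk1, Hk2 and Hk3, Hk1 made up 91.9% ± 0.637 in WT and 95.1% ± 0.194 in Apoe-/- cells (SD, n = 2 each), and Hk2 5.25% ± 0.586 and 2.15% ± 0.173. Hk1 was at 19.1 and 16.2 times the FPKM of Hk2 in WT and at 46.8 and 41.9 times in Apoe-/- cells. The summed level of the 3 genes was 54.5 ± 2.55 and 52.8 ± 1.37 FPKM, and these sums overlapped between the genotypes. The ratio of Hk1 to Hk3, by contrast, had overlapping groups.

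**Figure D2:**
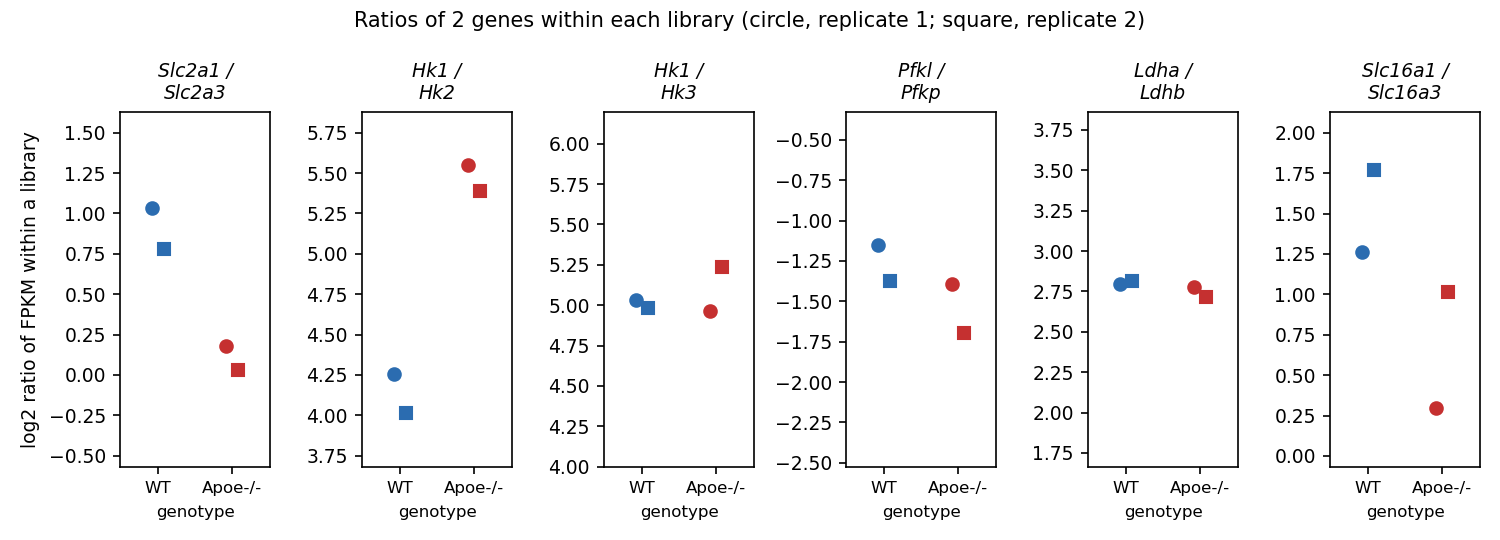
Log2 ratio of the FPKM of 2 genes within each library, for 6 pairs of transporters or isozymes; all panels span the same height, so distances can be compared. Hk1 to Hk2 is higher and Slc2a1 to Slc2a3 lower in both Apoe-/- libraries, whereas Hk1 to Hk3 overlaps and Ldha to Ldhb differs by little.

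Phosphofructokinase commits sugar to glycolysis and is made of liver (Pfkl), platelet (Pfkp) and muscle (Pfkm) subunits. Pfkl, on chromosome 10 from 77986947 to 78009807, was at 28.0 and 24.5 FPKM in WT and at 20.9 and 19.3 FPKM in Apoe-/- cells. Its groups did not overlap, but the difference of -0.37 (95% interval -0.67 to -0.07) did not pass after adjustment (limma adjusted p = 0.178). Pfkp, on chromosome 13 from 6579874 to 6649060, was the main subunit transcript, at 62.3 and 63.7 FPKM in WT and at 54.8 and 62.6 FPKM in Apoe-/- cells. Apoe-/- replicate 2 lay within the WT range and the difference was -0.10 (-0.37 to 0.17, limma adjusted p = 0.636), with -0.18 and -0.03 within numbers 1 and 2. Pfkp overlaps Pitrm1, a protein-coding gene on the opposite strand, at its end. Pfkm was at 7.35 and 6.83 FPKM in WT and at 9.36 and 9.89 FPKM in Apoe-/- cells (limma adjusted p = 0.151). Its share of the 3 subunit transcripts was 7.35% ± 0.241 in WT and 10.9% ± 0.161 in Apoe-/- cells, while Pfkl made up 27.3% ± 2.04 and 22.8% ± 2.49 and Pfkp 65.4% ± 2.28 and 66.3% ± 2.65 (SD, n = 2 each).

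Pkm and Ldha encode the enzymes that form pyruvate and reduce it to lactate. Pkm, on chromosome 9 from 59656576 to 59679372, was at 409 and 383 FPKM in WT and at 384 and 369 FPKM in Apoe-/- cells. These ranges overlapped (difference -0.07, 95% interval -0.28 to 0.14, limma adjusted p = 0.678). The table gives 1 value per gene, so the M1 and M2 splice forms of pyruvate kinase cannot be told apart. Ldha, on chromosome 7 from 46842274 to 46855627 and 27.1 Mb from Apoe, was at 255 and 249.8 FPKM in WT and at 234 and 248 FPKM in Apoe-/- cells. The groups did not overlap, yet the gap between WT replicate 2 and Apoe-/- replicate 2 was small (difference -0.07, -0.28 to 0.14, limma adjusted p = 0.694). Within replicate number 2 it was -0.01, against -0.12 within number 1. Ldhb, the form that favours lactate use, was at 36.8 and 35.6 FPKM in WT and at 34.1 and 37.7 FPKM in Apoe-/- cells. Ldha made up 87.5% ± 0.0969 of both transcripts in WT and 87.0% ± 0.356 in Apoe-/- cells (SD, n = 2 each).

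Monocarboxylate transporters move lactate across the plasma membrane: Slc16a1 encodes MCT1, which works in either direction, and Slc16a3 encodes MCT4, an exporter of highly glycolytic cells. Slc16a1, on chromosome 3 from 104638664 to 104658462, was at 18.3 and 23.3 FPKM in WT and at 5.85 and 8.28 FPKM in Apoe-/- cells. Every Apoe-/- value was less than the lower WT value, although the libraries within each genotype also differed. The means were 20.8 ± 3.54 and 7.07 ± 1.72 FPKM (SD, n = 2 each), and the log2 difference of -1.44 ± 0.20 SE was the largest among the 10 genes (limma adjusted p = 0.0399), with -1.49 and -1.39 within numbers 1 and 2. It was not called without WT replicate 2 (difference -1.27, adjusted p = 0.0571) or with no FPKM filter (adjusted p = 0.0945), and was called in the other 11 of 13 alternative settings. Within Slc16a1, GENCODE annotates 2 sense-intronic genes on the same strand, and how reads there were assigned is not given in the sources used here. The 250 bases before the Slc16a1 start are 76.4% G and C and hold the E-box printed above.

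Slc16a3, on chromosome 11 from 120948484 to 120959000, was at 7.63 and 6.83 FPKM in WT and at 4.77 and 4.11 FPKM in Apoe-/- cells. The groups did not overlap, and the difference of -0.60 ± 0.13 SE (-0.58 and -0.62 within numbers 1 and 2) did not pass (limma adjusted p = 0.0971). The FPKM sum of both lactate transporters was 28.0 ± 2.97 in WT and 11.5 ± 1.25 in Apoe-/- cells (SD, n = 2 each). Slc16a1 was at 2.39 and 3.41 times the FPKM of Slc16a3 in WT and at 1.23 and 2.02 times in Apoe-/- cells. Bsg, which encodes basigin, the chaperone that carries both transporters to the cell surface, was at 82.8 and 78.5 FPKM in WT and at 78.3 and 71.2 FPKM in Apoe-/- cells (difference -0.11, limma adjusted p = 0.591). Slc16a6, a further family member, was at 13.7 and 13.3 FPKM in WT and at 8.61 and 9.27 FPKM in Apoe-/- cells (-0.54, limma adjusted p = 0.0858). Of the 4 tested genes of this list 0 passed in limma, with 1 lower and 0 higher at an unadjusted limma p under 0.05. At that threshold 8.27% of all tested genes were lower and 11.6% higher. The median difference of the 4 genes was -0.21, and Ldhb had the least negative value, -0.01. In the same libraries the B cell markers had a median difference of -0.75 and the tested neutrophil markers of 2.27.

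**Figure D3:**
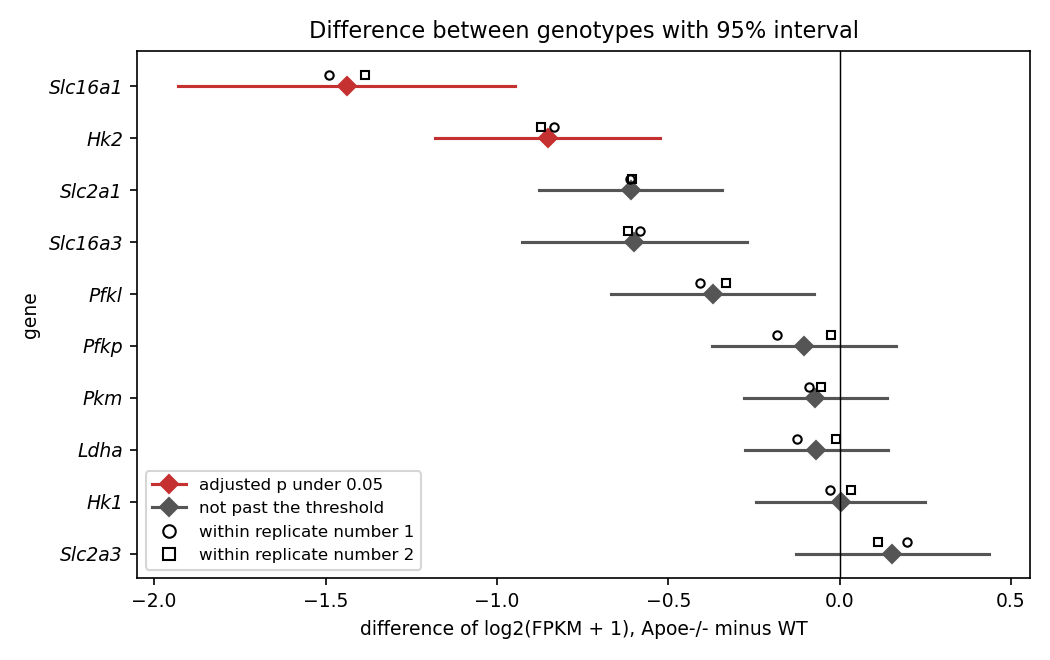
Diamonds give the Apoe-/- minus WT difference in log2(FPKM + 1) of each of the 10 genes, with 95% intervals from limma; red marks an adjusted p under 0.05, open circles and squares the differences within replicate numbers 1 and 2. Slc16a1 (-1.44) and Hk2 (-0.85) are red, and the intervals of Pfkp, Pkm, Ldha, Hk1 and Slc2a3 include 0.

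Over the 10 genes, both Apoe-/- libraries lay below both WT libraries in 6, where 22.9% of all tested genes did so, and above them in 1, where 27.5% did. The ranges overlapped in the other 3, Hk1, Pfkp and Pkm. The median difference was -0.24, with -0.30 within number 1 and -0.19 within number 2, beside 0.00 over all tested genes. The summed FPKM of the 10 genes was 875 and 842 in WT and 789 and 794 in Apoe-/- cells, of which Pkm and Ldha held most.

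Further hexokinases and glycolytic enzymes went in both directions. Of 18 further hexokinase and glycolysis genes 15 were tested, and 0 were called by limma. At an unadjusted limma p under 0.05, 3 were lower and 3 higher, beside 8.27% and 11.6% of all tested genes. The median difference of the 15 genes was -0.05 (-0.13 and 0.02 within numbers 1 and 2). Aldoa, Tpi1, Gapdh, Pgk1, Pgam1 and Eno1 were the 6 of these 15 whose Apoe-/- values both lay below both WT values, where 22.9% of all tested genes did so. Gpi1, an equally central and abundant enzyme, had overlapping groups, at 171 and 156 FPKM in WT and at 173 and 166 FPKM in Apoe-/- cells (difference 0.05, limma adjusted p = 0.786). Gapdh was at 922 and 831 FPKM in WT and at 805 and 794 FPKM in Apoe-/- cells (difference -0.13, limma adjusted p = 0.447). Pgam1, a phosphoglycerate mutase, had the most negative difference of the list (-0.39, limma adjusted p = 0.111). It was at 82.5 and 79.5 FPKM in WT and at 62.8 and 60.5 FPKM in Apoe-/- cells. Many of these genes have processed pseudogenes of near-identical sequence, and how reads shared with them were assigned is not given in the sources used here.

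Pfkm, Eno2, Eno3 and Bpgm were the 4 of these 15 genes with both Apoe-/- values above both WT values, a share near the 27.5% of all tested genes. Eno3, the muscle form of enolase, had the most positive difference of the list (0.70, limma adjusted p = 0.0792). It was at 8.26 and 7.16 FPKM in WT and at 14.1 and 12.2 FPKM in Apoe-/- cells. Eno1 was at 178 and 164 FPKM in WT and at 156 and 149 FPKM in Apoe-/- cells, so it stayed the main enolase transcript. Eno1 was at 21.5 and 22.9 times the FPKM of Eno3 in WT and at 11.1 and 12.2 times in Apoe-/- cells. Pfkl likewise was at 3.81 and 3.59 times the FPKM of Pfkm in WT and at 2.23 and 1.95 times in Apoe-/- cells. Both of these pairs were chosen after their values were seen.

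**Figure D4:**
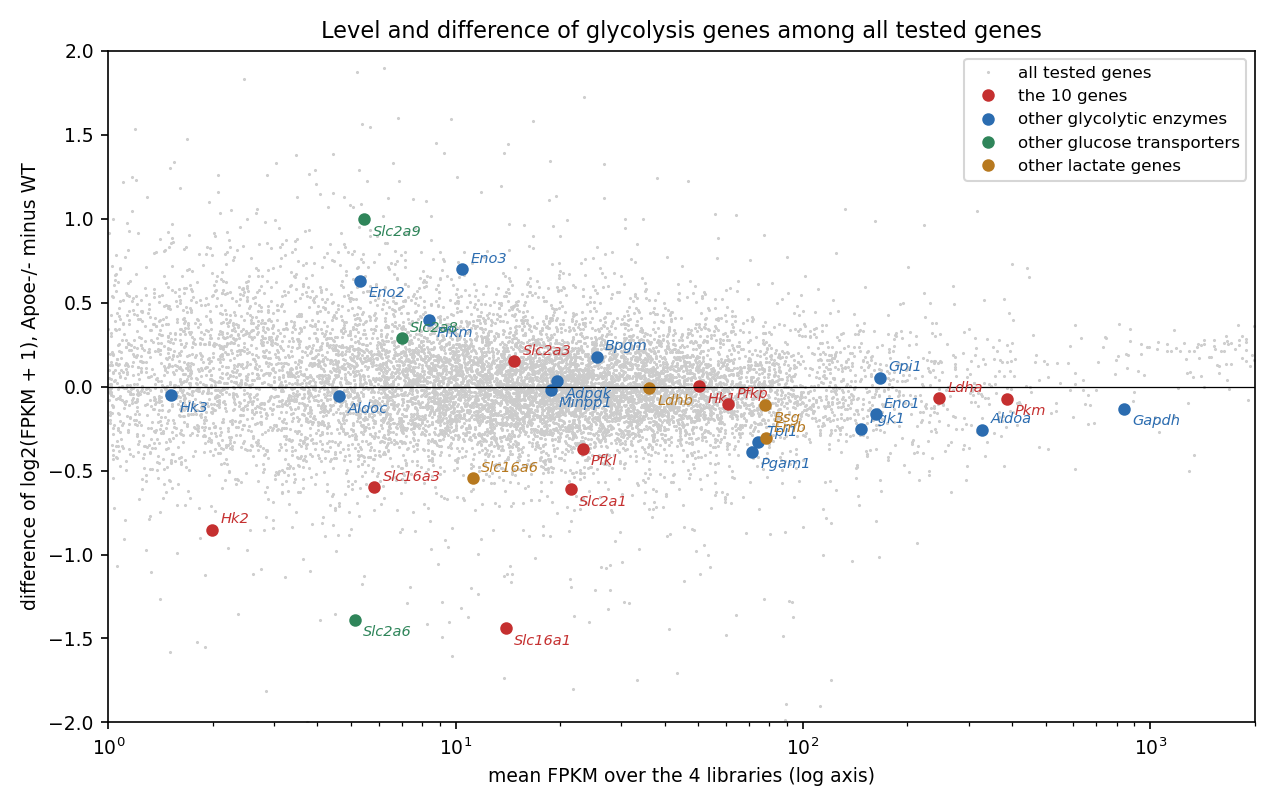
Difference of log2(FPKM + 1), Apoe-/- minus WT, against mean FPKM over the 4 libraries (log axis); grey points are all tested genes, of which 54 lie outside the axes, and coloured points are the 10 genes and further transporters, glycolytic enzymes and lactate genes. Slc16a1 and Slc2a6 are the lowest coloured points and Slc2a9 the highest.

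Genes of the neighbouring pathways gave no calls. The unadjusted counts that follow stand beside 8.27% lower and 11.6% higher among all tested genes at a limma p under 0.05. For phosphofructokinase regulators 0 of 5 tested genes passed in limma (0 lower and 1 higher at an unadjusted p under 0.05). Pfkfb1 was at 2.17 and 3.33 FPKM in the mean of WT and Apoe-/- cells, and Pfkfb3, which makes the activator of phosphofructokinase in activated cells, at 22.0 and 20.3 FPKM. For pyruvate entry into mitochondria 0 of 13 passed (1 lower and 1 higher unadjusted), with Pdk2, a kinase that restrains pyruvate dehydrogenase, at 3.89 and 4.11 FPKM in WT and at 5.99 and 5.09 FPKM in Apoe-/- cells, and the opposing phosphatase Pdp2 at means of 2.65 and 1.83 FPKM. The pentose phosphate pathway had 0 of 8 (0 lower and 1 higher unadjusted; H6pd at 5.97 and 9.18 FPKM, Rpe at 19.3 and 15.6 FPKM), and the glycogen, hexosamine and serine branches 0 of 18 (0 lower and 2 higher unadjusted; Pgm1 at 10.3 and 14.8 FPKM, Uap1 at 9.60 and 7.53 FPKM). The medians of these 4 lists were 0.02, -0.07, -0.01 and 0.03, beside 0.00 over all tested genes, and each changed sign when single libraries were left out, so they carry no direction. With 1 library left out, the first ranged from -0.10 (without WT replicate 1) to 0.15 (without WT replicate 2). Without Apoe-/- replicate 1 and replicate 2 respectively, the second was 0.042 and -0.18 and the fourth 0.14 and -0.060. The third was 0.015 without WT replicate 1 and -0.018 without Apoe-/- replicate 1.

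Regulators of glucose uptake did not pass in limma either (0 of 21, with a median of 0.00). At an unadjusted limma p under 0.05, 1 was lower and 4 were higher, beside 8.27% and 11.6% of all tested genes. Txnip, which restrains glucose uptake and removes GLUT1 from the surface, was at 148 and 151 FPKM in WT and at 193 and 209.8 FPKM in Apoe-/- cells (0.42 ± 0.09 SE, limma adjusted p = 0.0928). Its relative Arrdc4 was at 5.13 and 5.28 FPKM in WT and at 7.27 and 8.01 FPKM in Apoe-/- cells (0.48, limma adjusted p = 0.118). Both genes, which respond to intracellular glucose phosphates, were higher in both Apoe-/- libraries than in both WT libraries. Of the 21 tested genes of this list, 6 were so placed and 5 the other way. These shares are near the 27.5% and 22.9% of all tested genes. Hif1a was at 263 and 316 FPKM in WT and at 190.5 and 255 FPKM in Apoe-/- cells (-0.39, limma adjusted p = 0.287), and Myc at 27.6 and 25.1 FPKM in WT and at 22.9 and 20.4 FPKM in Apoe-/- cells (-0.28, limma adjusted p = 0.273).

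Of 13 tested HIF targets outside glycolysis, 0 passed in limma. At an unadjusted limma p under 0.05, 2 were lower and 0 higher, beside 8.27% and 11.6% of all tested genes. Both Apoe-/- values lay below both WT values in 7 and above them in 0, where 22.9% and 27.5% of all tested genes did so. The median difference was -0.14. That median ranged from -0.049 without Apoe-/- replicate 1 to -0.33 without Apoe-/- replicate 2. Ankrd37 was at 6.83 and 5.73 FPKM in WT and at 3.42 and 2.08 FPKM in Apoe-/- cells (-0.98, limma adjusted p = 0.0924), and the prolyl hydroxylase P4ha1 at 15.4 and 17.3 FPKM in WT and at 9.79 and 9.59 FPKM in Apoe-/- cells (-0.70, limma adjusted p = 0.0572). Ddit4, with the most positive difference of the list (0.07), had overlapping groups. Among 14 proliferation genes 0 passed in limma, 4 lower and 0 higher had an unadjusted p under 0.05, 9 had both Apoe-/- values below both WT values (22.9% of all tested genes did), and the median was -0.20 (-0.30 without Apoe-/- replicate 2). Aurka was the lowest of these at 8.66 and 5.22 FPKM (limma adjusted p = 0.0847) and Tk1 the highest at 18.7 and 23.6 FPKM (limma adjusted p = 0.254) in the means of WT and Apoe-/- cells.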

How the data were processed

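RNA of Tfh cells from 2 WT and 2 Apoe-/- libraries was analysed as FPKM per gene symbol, as the authors deposited it. Build mm10 and the tools TopHat2 2.0.13, Cuffdiff 2.2.0 and CASAVA 1.8.2 are listed in the submitters' processing notes. Annotation, filters and strand setting: not given in the sources used here. Read depth is unknown. In 2 rows (Bcl6 and Cxcr5) a space replaces a tab, and these were split on white space. FPKM totals ranged from 522371 to 551289 per library. Log2(FPKM + 1) was compared, for the 11187 genes whose mean FPKM reached 1, by limma 3.58.1 in R 4.3.3 (eBayes with trend, two-sided, Benjamini-Hochberg, threshold 0.05). Intervals are 95% limma intervals. Ratios between genes were formed within each library and compared by exact permutation. Alternatives changed the pseudocount, filter, scaling, eBayes options, replicate block and libraries kept. The procedure was tested on simulated data. Positions and promoter sequences are RefSeq's for GRCm38, and 22500 of 23997 symbols are current RefSeq symbols. The genes and lists were chosen with earlier results of these data known. By rule, named genes are all 10, Apoe, 5 T cell markers, every listed gene past the threshold (apart from an item that is not reported here), and the highest and lowest tested gene of each pathway list. Other listed genes that are named, such as Gapdh, Gpi1, Bsg, Txnip, Myc and P4ha1, were chosen after their values were seen.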

Additional observations from a re-analysis of the deposited data

How the results depend on the processing

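The 2 calls among the 10 genes depended on the setting. There were 2 genes called lower in 7 of 13 alternatives, 1 with a pseudocount of 0.1, 1 with a mean FPKM of 5 or more (where Hk2 was not tested), 0 with no FPKM filter, and 0 to 2 with 1 library left out. None (0) were called higher in any. With the replicate block, in which the replicate number is a term, 5 of the 10 genes were called lower. In that setting 1776 of all 11187 tested genes were called lower and 1908 higher. The 5 genes were Slc16a1, Hk2, Slc2a1 (limma adjusted p = 0.00314), Slc16a3 (0.00829) and Pfkl (0.00966). The labels do not say that equal numbers mark a shared animal or day, and deviations of equally numbered libraries from their group means correlated at 0.21 across tested genes. Over the whole table, 106 genes were called higher and 99 lower. The cause of these changes was not tested. These counts were 35 and 41 with no FPKM filter, 51 higher with a mean FPKM of 5 or more, 1908 and 1776 with the replicate block, and 54 to 317 and 61 to 301 with 1 library left out, where a lone library is taken to vary as the other genotype does. The median of the 10 genes was -0.10 with a mean FPKM of 5 or more, which drops Hk2, and moved by less than the spread of the libraries in the other 12 alternatives. Hk1, with a difference near 0, turned to -0.044 with libraries rescaled to one FPKM total and ranged from -0.051 to 0.057 with 1 library left out; the other 9 of the 10 genes kept their sign. With a pseudocount of 0.5 the difference in the log2 ratio of Hk1 to Hk2 was 1.04 in place of 1.33. Rescaling moved the median of all tested genes by less than 0.1 on the log2 scale. With 2 libraries a group and unknown depth, differences of the size seen for Pkm or Ldha could not be resolved.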
